A study of Homo sapiens with 18 samples.

Results

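The 8 genes described here make up the core of polyamine metabolism and its feedback control: the biosynthetic enzymes ODC1, AMD1, SRM and SMS, the antizymes OAZ1 and OAZ2, the antizyme inhibitor AZIN1, and the acetyltransferase SAT1. They were chosen by name, for their place in the pathway and for known control at the level of translation. Earlier results of these data were known when they were chosen. They are 8 of the 17017 gene symbols in the deposited table. RNA-seq of cytoplasmic RNA (IN) and ribosome profiling (RPF, sequencing of the fragments that ribosomes protect from RNase) were done in MDA-MB-231, an established human line of triple-negative breast carcinoma. The cells carried a lentiviral short hairpin RNA against fibrillarin (FBL), the methyltransferase that places 2'-O-methyl groups on ribosomal RNA, or a control. The study compared 2 hairpin treatments, labelled SH2 and SH3, with the treatment labelled SC.

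All 18 libraries, 3 for each of the 6 groups, came from transduced pools of this 1 line, made with pLKO.1 vectors. Per the labels' protocols, control and hairpin cells alike stayed in 1 µg/ml puromycin for 96 h and were given 100 µg/ml cycloheximide, which arrests elongating ribosomes, for 5 min before lysis. From each lysate 10 µg of RNA was set aside as the IN sample, and the remainder was digested for footprints. SC was read here as the scramble control that the protocols describe. The protocols number the knockdowns, and the sample labels give no key from those numbers to SH2 and SH3. Nothing states that the 3 replicates of a group were separate cultures, so the p-values measure only the spread between these samples, which may be technical.

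Polyamines (putrescine, spermidine and spermine) are small cations needed for growth, and they bind RNA and ribosomes. Ornithine decarboxylase makes putrescine, S-adenosylmethionine decarboxylase supplies the aminopropyl donor, and the synthases SRM and SMS use it to make spermidine and spermine. The pathway is known for feedback through translation. Polyamines raise a programmed frameshift that is needed to make antizymes, antizymes send ornithine decarboxylase to the proteasome, and short upstream reading frames hold back translation of AMD1 and AZIN1 mRNA when polyamines are plentiful.

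The sequence that this known control of AMD1 acts through is shown because AMD1 had the largest rise in footprints per RNA of the 8 genes in SH2. It is an upstream reading frame of 6 codons before its stop, read from RefSeq (GRCh38.p14) at chr6:110874796-110874816 on the + strand, beginning at base 12 or 13 of the transcript from 2 of the 3 annotated starts of AMD1, with its start and stop codons in capitals.
AMD1 upstream frame: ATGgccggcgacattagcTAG
A complete ATG-to-stop frame lay in the first 50 transcribed bases of 10.2% of 35116 RefSeq promoter windows of the same length, and in no window of another member. The window of the remaining AMD1 start held no such frame in its first 50 bases. RefSeq windows, 250 bases before to 50 after an annotated start, were found for 7 of the 8 members, in 10 windows. The table of promoters held no entry for AZIN1.

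ODC1 and SRM were the biosynthetic genes with the largest losses of footprints in SH2. They were also the members whose windows hold the canonical E-box CACGTG (in capitals below), the element known to bind MYC and MAX. The order in RNA was another: in SH2 the log2 fold change was -1.39 for SMS, -1.04 for ODC1, -0.48 for AMD1 and -0.37 for SRM. Footprints in SH3 had a further order, with -1.19 for SRM, -0.77 for AMD1, -0.57 for ODC1 and -0.57 for SMS. The windows of SMS and AMD1 held no E-box. A link between the element and these changes was not tested. Each stretch is 30 bases of GRCh38.p14 on the - strand. The ODC1 stretches lie at chr2:10448024-10448053 and chr2:10447990-10448019, with the E-box beginning 29 bases before and 6 bases after 1 of the annotated starts, and the SRM stretch lies at chr1:11060200-11060229, with the E-box beginning 199 bases before the start.
ODC1 E-box before the start: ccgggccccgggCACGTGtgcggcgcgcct
ODC1 E-box after the start: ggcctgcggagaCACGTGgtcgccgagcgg
SRM E-box: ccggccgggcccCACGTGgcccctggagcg
CACGTG reads the same on both strands, and it was present in 7.26% of the 35116 windows. No match overlapped one of the GC box or TATA box searched in the same windows. A match is a description of the letters in the window and not evidence of binding.

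IN libraries held 23469830 to 27629488 counts and RPF libraries 1662705 to 6098648, so footprint values rest on fewer reads. Replicates varied by 11.6% in IN and by 15.1% in RPF (edgeR's biological coefficient of variation). Levels are CPM, counts scaled to a common library total, within a library kind and were not divided by gene length, so levels of different genes are not compared. FBL RNA was 349 to 421 CPM in SC, 1.26 to 11.2 in SH2 and 2.95 to 4.15 in SH3, and its residual RNA did not differ between the hairpins beyond the spread (edgeR adjusted p = 0.242). SH2 replicate 3 kept the most FBL, with 11.2 CPM of RNA and 30.1 CPM of footprints against at most 4.52 and 5.18 CPM in the other SH2 libraries. Markers of the line (VIM, CD44, AXL and CAV1) were present in every library, ESR1, PGR and CDH1 were at or near 0, GATA3 averaged 8.03 CPM in SC RNA, and PTPRC and PECAM1, markers of leukocytes and endothelium, averaged no more than 3.46 CPM in any group.

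RNA of most of the polyamine genes was lower with either hairpin than in SC, and the RNA calls of SRM and AZIN1 were lost in some alternatives (below). In SH2 all 8 members fell, against 30.4% of the 12710 genes tested that fell, 31.1% that rose and 61.4% that changed in either direction (edgeR quasi-likelihood test, Benjamini-Hochberg adjusted p under 0.05, called below). In SH3 6 of 8 fell and none rose, against 25.2% of genes that fell, 27.8% that rose and 53% that changed. The median log2 fold change of the members was -0.69 in SH2 and -0.71 in SH3, beside medians over all genes of 0.01 and 0.03. In bulk RNA of a cell pool, less RNA per cell and fewer cells with the RNA cannot be told apart. Footprints were less uniform. In SH2 6 members fell and 2, AMD1 and AZIN1, rose, against 23.2% of 10345 genes that fell, 21% that rose and 44.2% that changed. In SH3 6 fell and none rose, against 19% that fell, 16.9% that rose and 35.9% that changed. The SC libraries are shared by both comparisons, so these counts are not independent of each other.

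**Figure D1:**
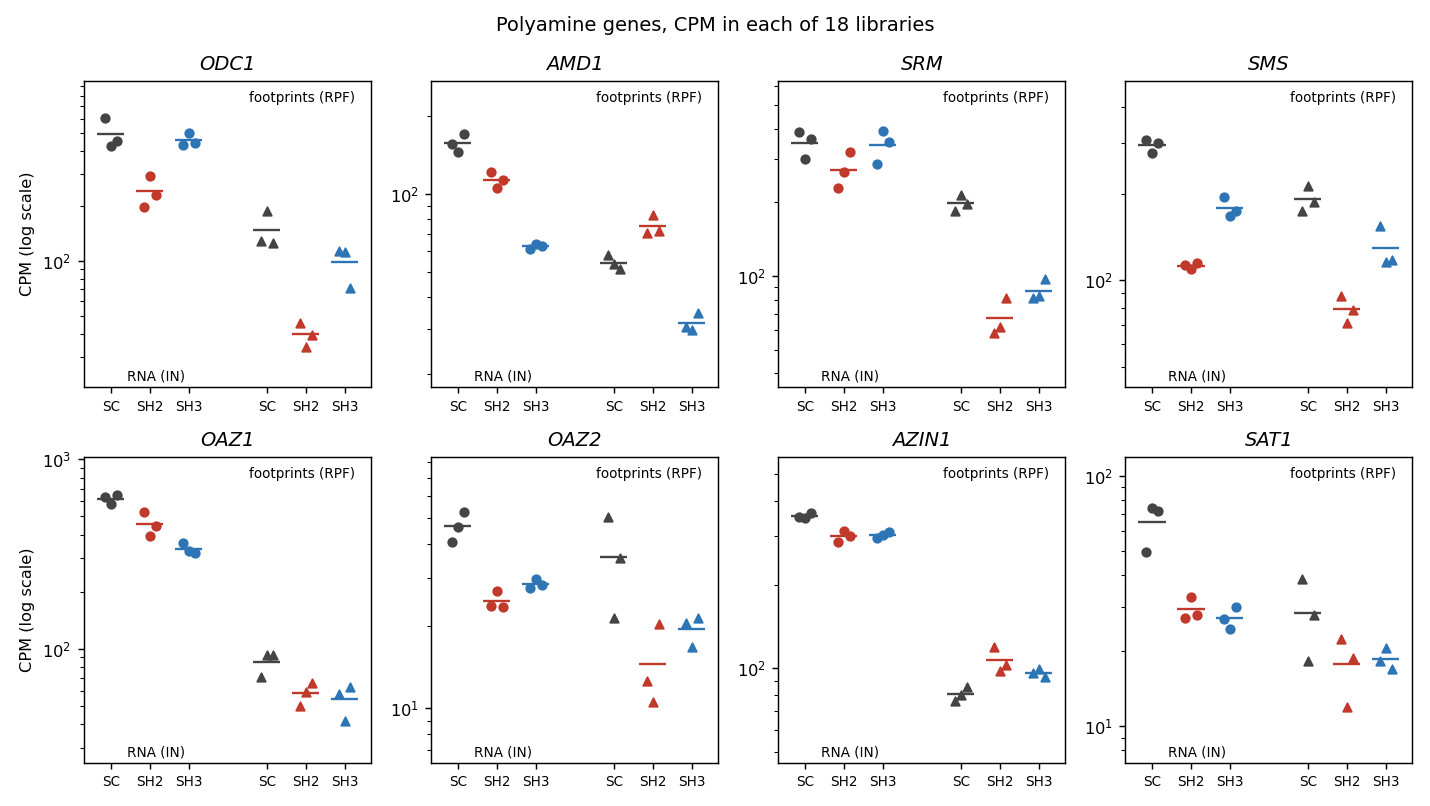
CPM of each polyamine gene (log axis) in the 9 RNA libraries (circles) and the 9 footprint libraries (triangles), grouped by SC, SH2 and SH3, with each group's mean as a line. AMD1 footprints lie above SC in all 3 SH2 libraries and below SC in all 3 SH3 libraries, while SRM footprints lie below SC in both.

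ODC1, ornithine decarboxylase, the first and classically rate-limiting enzyme of the pathway, lost RNA and footprints in SH2 and footprints in SH3. ODC1 RNA stood at 601, 423 and 452 CPM in the SC libraries, at 198, 292 and 229.6 in SH2 and at 431, 500.1 and 439 in SH3. Footprints stood at 128, 187 and 126 CPM in SC, at 45.9, 34.0 and 39.2 in SH2 and at 113, 112 and 70.8 in SH3. All SH2 libraries were below all SC libraries in both measures, SH3 RNA overlapped SC, and SH3 footprints were below SC. The RNA of SH2 was 0.487 times that of SC (log2 fold change -1.04 ± 0.15 SE, n = 3, adjusted p = 4.63e-05) and its footprints were 0.271 times (-1.89 ± 0.21, adjusted p = 5.38e-06). For SH3 the RNA difference of -0.11 was within the spread (95% interval -0.43 to 0.21, adjusted p = 0.566), and footprints fell to 0.673 times SC (-0.57 ± 0.20, adjusted p = 0.0329). That SH3 call was lost without SC replicate 2 (adjusted p = 0.132), without SH3 replicate 3 (0.181), with plain library totals (0.0545) and with only the groups compared in the fit (0.0519).

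AMD1, S-adenosylmethionine decarboxylase, whose upstream frame is shown above, moved in opposite directions in the footprints of the hairpin treatments. AMD1 RNA stood at 156, 146 and 170.5 CPM in SC, at 122, 105 and 113 in SH2 and at 61.3, 63.6 and 62.9 in SH3. Footprints stood at 58.0, 53.5 and 51.0 CPM in SC, at 70.4, 83.0 and 71.9 in SH2 and at 30.4, 29.8 and 34.7 in SH3. None of the 3 groups overlapped another in either measure: RNA ran from SC down to SH2 and then SH3, and footprints ran from SH2 down to SC and then SH3. In SH2, RNA fell (-0.48 ± 0.09, adjusted p = 0.000511) while footprints rose to 1.39 times SC (0.47 ± 0.14, adjusted p = 0.0134). In SH3, RNA fell to 0.398 times SC (-1.33 ± 0.09, adjusted p = 2.5e-07) and footprints fell to 0.586 times (-0.77 ± 0.15, adjusted p = 0.00121). The footprint rise in SH2 missed the threshold without SC replicate 3 (0.0588), without SH2 replicate 2 (0.0672) and with footprint libraries thinned to 1 depth (0.0992).

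SRM, spermidine synthase, kept most of its RNA and lost footprints with both hairpins. SRM RNA stood at 389, 300.5 and 366 CPM in SC, at 229, 266 and 321 in SH2 and at 289, 393 and 353 in SH3. Footprints stood at 184, 214 and 197 CPM in SC, at 58.5, 62.0 and 81.3 in SH2 and at 81.4, 82.5 and 97.1 in SH3. The RNA groups overlapped in every comparison, whereas every footprint library of either hairpin was below every SC library. Footprints fell to 0.339 times SC in SH2 (-1.56 ± 0.15, adjusted p = 1.77e-06) and to 0.440 times in SH3 (-1.19 ± 0.15, adjusted p = 3.62e-05). RNA fell in SH2 (-0.37 ± 0.14, adjusted p = 0.0359), and its difference in SH3 was -0.03 (95% interval -0.33 to 0.28, adjusted p = 0.879). The SH2 RNA call was lost with plain library totals (0.0904) and without SC replicate 1 (0.0845), SC replicate 3 (0.0913), SH2 replicate 1 (0.149) or SH2 replicate 2 (0.0856).

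SMS, spermine synthase, fell in RNA and footprints together, and fell further in SH2 than in SH3. SMS RNA stood at 308, 276.5 and 301 CPM in SC, at 113, 109.6 and 115 in SH2 and at 194, 167 and 175 in SH3. Footprints stood at 174.5, 213 and 187 CPM in SC, at 88.1, 70.9 and 78.7 in SH2 and at 154, 116 and 118 in SH3. The order SC, SH3, SH2 held in both measures with no overlap between groups. The fall in SH2 was of like size in RNA (-1.39 ± 0.09, adjusted p = 4.89e-08) and footprints (-1.27 ± 0.15, adjusted p = 1.06e-05). In SH3 it was -0.72 ± 0.09 in RNA (adjusted p = 2e-05) and -0.57 ± 0.15 in footprints (adjusted p = 0.00772). The SH3 footprint call was lost without SH3 replicate 2 (0.0531).

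OAZ1, the main antizyme, whose full-length protein needs a ribosomal frameshift, fell in both measures. OAZ1 RNA stood at 630.1, 580.1 and 643.5 CPM in SC, at 526.5, 394.5 and 443 in SH2 and at 361, 329 and 321 in SH3. Footprints stood at 70.8, 92.3 and 92.7 CPM in SC, at 50.0, 59.2 and 66.4 in SH2 and at 58.0, 41.8 and 62.8 in SH3. All hairpin libraries were below all SC libraries in both measures. RNA fell by 0.44 on the log2 scale in SH2 (adjusted p = 0.00294) and by 0.87 in SH3 (adjusted p = 2.13e-05). Footprints fell by 0.53 in SH2 (adjusted p = 0.0212) and by 0.65 in SH3 (adjusted p = 0.01). The footprint calls were less firm: the SH2 call was lost without SC replicate 3 (0.0921), SH2 replicate 1 (0.095) or SH2 replicate 2 (0.0576), and the SH3 call without SC replicate 3 (0.0513) or SH3 replicate 2 (0.0772). Counts per gene do not show in which frame a footprint lies, so frameshifting itself was not measured here.

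OAZ2, the second broadly expressed antizyme, also fell, with footprints counted at low depth. OAZ2 RNA stood at 40.8, 46.2 and 52.4 CPM in SC, at 23.7, 27.0 and 23.5 in SH2 and at 27.5, 29.8 and 28.3 in SH3. Footprints stood at 50.5, 21.5 and 35.7 CPM in SC, at 12.6, 10.5 and 20.4 in SH2 and at 20.5, 16.8 and 21.4 in SH3. The SC footprint libraries spread widely, from 51 to 311 counts, and the lowest of them was just above the highest hairpin library. RNA fell by 0.91 in SH2 (adjusted p = 1.04e-05) and by 0.70 in SH3 (adjusted p = 0.000145). Footprints fell by 1.36 ± 0.29 in SH2 (adjusted p = 0.0012) and by 0.92 ± 0.29 in SH3 (adjusted p = 0.0192). The SH3 footprint call was lost without SC replicate 1 (0.0963), without SH3 replicate 2 (0.0969) and at the thinned depth (0.114).

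AZIN1, the antizyme inhibitor, an ornithine decarboxylase homologue without enzymatic activity that binds antizymes, had slightly less RNA with both hairpins and more footprints in SH2. AZIN1 RNA stood at 352, 347 and 362 CPM in SC, at 286, 312 and 299.7 in SH2 and at 296, 301.5 and 309.9 in SH3. Footprints stood at 76.1, 80.5 and 85.6 CPM in SC, at 119, 98.1 and 103 in SH2 and at 96.0, 99.6 and 92.9 in SH3. All 6 hairpin libraries were below SC in RNA and above SC in footprints. RNA fell by 0.24 in SH2 (adjusted p = 0.0204) and by 0.23 in SH3 (adjusted p = 0.033). Footprints rose to 1.32 times SC in SH2 (0.40 ± 0.13, adjusted p = 0.0224), while the SH3 difference of 0.25 ± 0.14 did not pass (95% interval -0.03 to 0.54, adjusted p = 0.157). The RNA calls were lost with plain library totals (0.132 and 0.175). The SH2 RNA call was also lost without SC replicate 3 (0.0724) or SH2 replicate 1 (0.0787), and the SH3 RNA call without SC replicate 2 (0.0528), SC replicate 3 (0.107) or SH3 replicate 1 (0.0517) and with no low-count filter (0.0798). The footprint call was lost without SC replicate 1 (0.0617), without SH2 replicate 1 (0.0805) and at the thinned depth (0.383).

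SAT1, spermidine/spermine acetyltransferase, which marks polyamines for export or oxidation, lost RNA with either hairpin, to under 0.5 of the SC level. SAT1 RNA stood at 49.5, 74.3 and 72.2 CPM in SC, at 27.1, 32.9 and 27.8 in SH2 and at 26.9, 24.5 and 29.9 in SH3. Footprints stood at 38.8, 18.1 and 27.7 CPM in SC, at 22.2, 11.9 and 18.8 in SH2 and at 18.2, 20.5 and 16.8 in SH3. The RNA groups of SC and the hairpins did not overlap, but the footprint groups did. RNA fell to 0.448 times SC in SH2 (-1.16 ± 0.15, adjusted p = 1.39e-05) and to 0.414 times in SH3 (-1.27 ± 0.15, adjusted p = 1.18e-05). The footprint difference was -0.75 ± 0.26 in SH2 (adjusted p = 0.03) and -0.65 ± 0.27 in SH3 (adjusted p = 0.0718). The SH2 footprint call was lost without SC replicate 1 (0.173), SC replicate 3 (0.0605), SH2 replicate 2 (0.168) or SH2 replicate 3 (0.0579), at the thinned depth (0.0597) and with only the groups compared in the fit (0.0579), and the SH3 difference passed without SC replicate 2 (0.0126) or with no low-count filter (0.0206).

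**Figure D2:**
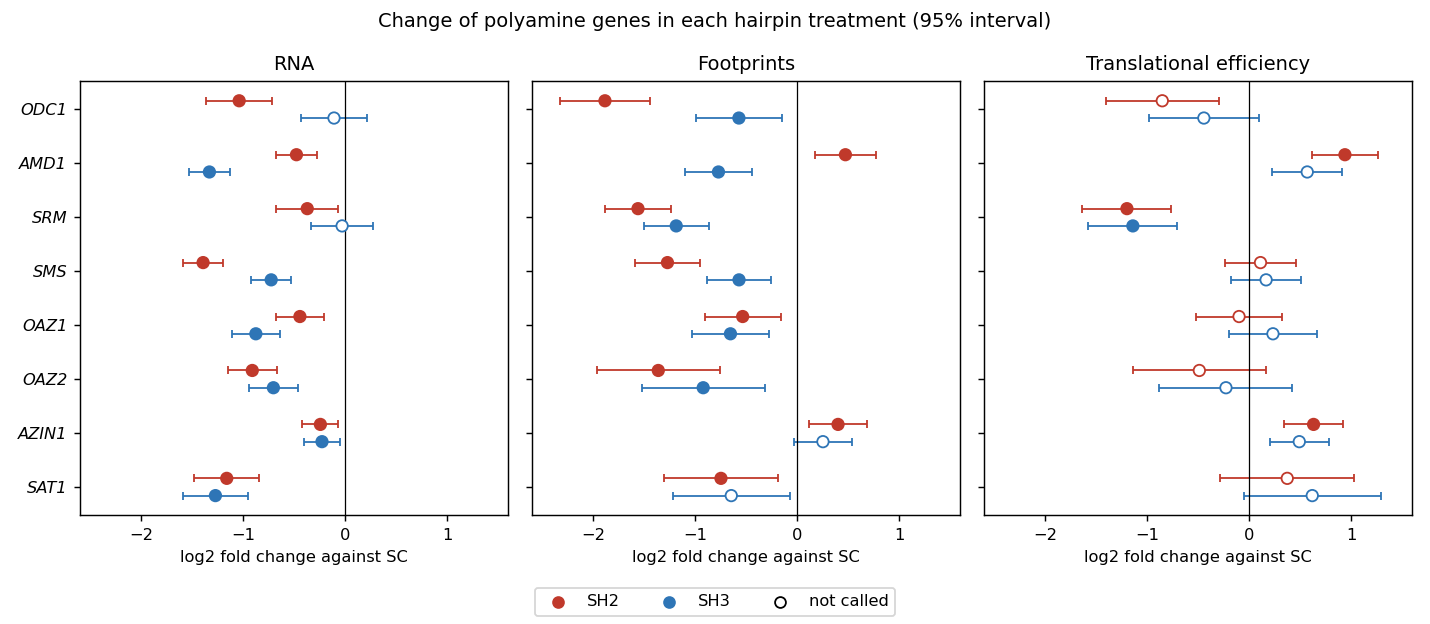
Log2 fold change against SC (points, with 95% intervals) of RNA, footprints and translational efficiency of the 8 genes in SH2 (red) and SH3 (blue); filled points passed an edgeR adjusted p under 0.05. In translational efficiency the filled points are AMD1 and AZIN1 to the right and SRM to the left in SH2, and SRM alone in SH3.

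Translational efficiency, meaning footprints per RNA of a gene, was tested as the footprint change minus the RNA change in 1 fit over all 18 libraries. In SH2 it rose for AMD1 and AZIN1 and fell for SRM, so 3 of 8 members passed, against 3.9% of 12531 genes in either direction, 1.44% higher and 2.46% lower. In SH3 it fell for SRM, so 1 of 8 passed, against 0.686% of genes in either direction, 0.375% higher and 0.311% lower. The member medians were 0.0047 in SH2 and 0.20 in SH3, beside -0.019 and -0.044 over all genes. So the 8 members did not move as a block. The calls that rose were AMD1 and AZIN1, and the gene that fell was SRM. A role of upstream frames in these changes was not tested. The antizymes OAZ1 and OAZ2 passed with neither hairpin.

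AMD1 had 1.92 times the SC ratio in SH2 (0.94 ± 0.15, adjusted p = 0.00203), and this call held in all alternatives tried, with adjusted p from 3.01e-07 to 0.0293. In SH3 the AMD1 difference was 0.57 ± 0.17 (95% interval 0.23 to 0.91, unadjusted p = 0.00238, adjusted p = 0.12) and passed only with DESeq2 (0.0436). Every pairing of a hairpin footprint library with a hairpin RNA library gave a higher AMD1 ratio than any SC pairing, for both hairpins. The same was seen for AZIN1. These pairings reuse the 3 footprint and 3 RNA libraries of a group, and the share of all genes so separated was not computed. AZIN1 followed with 1.55 times the SC ratio in SH2 (0.63 ± 0.14, adjusted p = 0.0147) and a difference of 0.49 ± 0.14 in SH3 (95% interval 0.20 to 0.78, unadjusted p = 0.00201, adjusted p = 0.116). The SH3 difference of AZIN1 passed with DESeq2 (0.00657). Its SH2 call was lost without SC replicate 3 (0.0525), SH2 replicate 1 (0.0827) or SH2 replicate 3 (0.0537), with only the groups compared (0.0532), with the replicate block (0.0607) and at the thinned depth (0.198). That block tied IN and RPF libraries by number, and numbers 1 and 2 did not match in SC and SH2 (closing section).

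SRM had 0.435 times the SC ratio in SH2 (95% interval of the log2 fold change -1.64 to -0.76, adjusted p = 0.00304) and 0.453 times in SH3 (-1.14 ± 0.21, adjusted p = 0.0122). Its SH2 call held in all alternatives tried, with adjusted p from 4.32e-05 to 0.0227, and its SH3 call was lost without SC replicate 3 (0.0766) or SH3 replicate 2 (0.181). ODC1 had a difference of -0.85 ± 0.27 in SH2 (adjusted p = 0.0759) that passed with plain library totals (0.0391), with no low-count filter (0.0218) and without SC replicate 1 (0.0271), and -0.45 ± 0.26 in SH3 (adjusted p = 0.516). For SMS the differences were 0.11 (95% interval -0.23 to 0.45) in SH2 and 0.16 (-0.18 to 0.51) in SH3, and for OAZ1 they were -0.10 (-0.52 to 0.32) and 0.23 (-0.20 to 0.66). OAZ2 and SAT1, with the fewest footprints, had the widest intervals, reaching from -1.14 to 0.16 for OAZ2 and from -0.28 to 1.03 for SAT1 in SH2. The SAT1 difference of 0.62 in SH3 (adjusted p = 0.448) became 1.10 and passed without SC replicate 1 (0.0457).

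**Figure D3:**
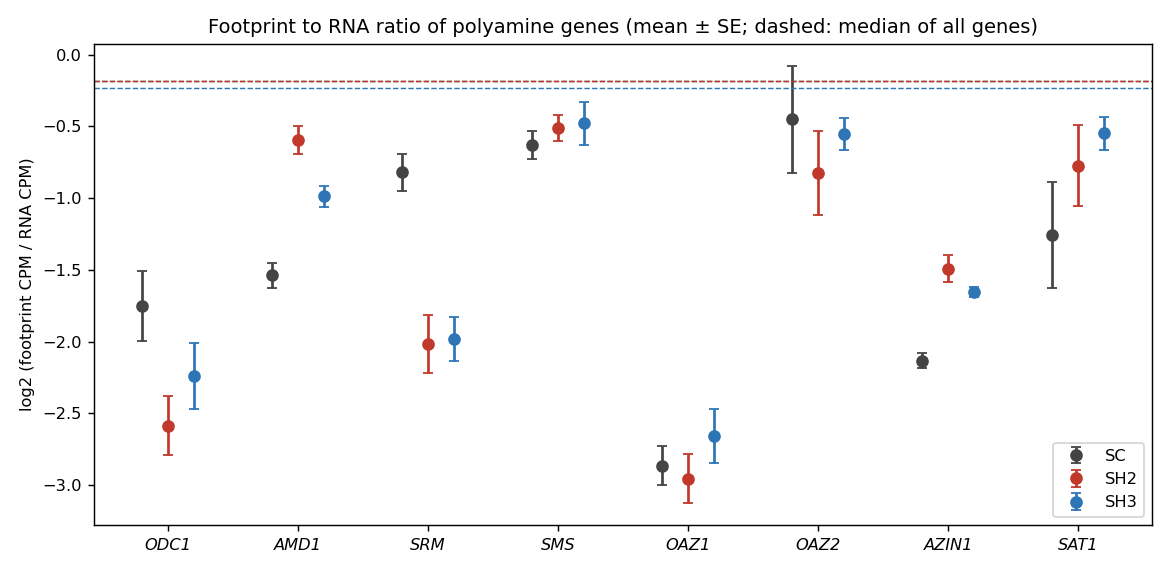
Mean log2 ratio of footprint CPM to RNA CPM of each gene in SC, SH2 and SH3, with SE from 3 footprint and 3 RNA libraries. Dashed lines are at the median of all genes that passed the low-count filter in both library kinds. OAZ1 lies lowest in each treatment, AMD1 and AZIN1 lie higher in the hairpin treatments than in SC, and SRM lies lower.

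In SC the mean footprints per RNA of all 8 members were below those of the median gene, for OAZ2 by less than its SE. This median and the percentiles are over genes that passed the low-count filter in both library kinds. Genes with too few footprints to pass were left out, so the percentiles may be too low. The log2 ratio of footprint CPM to RNA CPM was -2.87 ± 0.14 (SE, 3 and 3 libraries) for OAZ1, at percentile 1.23 of 10319 genes, and -2.13 ± 0.05 for AZIN1, at percentile 5.05. ODC1 was at -1.75 ± 0.24 (percentile 9.07) and AMD1 at -1.54 ± 0.09 (percentile 11.6). SAT1 followed at -1.26 ± 0.37 (percentile 16.8), SRM at -0.82 ± 0.13 (percentile 27.5), SMS at -0.63 ± 0.10 (percentile 33.4) and OAZ2 at -0.45 ± 0.37 (percentile 39.9), beside a median of -0.19 over the genes ranked. In this order OAZ1 and AZIN1 were more than their SEs apart, while ODC1, AMD1 and SAT1 were not. With the hairpins, the percentile was 34.7 in SH2 and 23.3 in SH3 for AMD1, 13 and 10.5 for AZIN1, 29.4 and 36.9 for SAT1, 3.04 and 4.74 for ODC1, and 6.76 and 6.88 for SRM. Of these differences from SC, those of AMD1, AZIN1 and SRM in SH2 and of SRM in SH3 passed the test of translational efficiency. Whether reads were counted over the coding region or over the whole mRNA is not given in the sources used here, so the ratios of different genes are a description.

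SH2 and SH3 were also compared directly. RNA of ODC1 (-0.93 ± 0.15, adjusted p = 0.000316) and SMS (-0.67 ± 0.09, adjusted p = 7.52e-05) was lower in SH2 than in SH3, and RNA of AMD1 (0.85 ± 0.09, adjusted p = 1.29e-05) and OAZ1 (0.43 ± 0.11, adjusted p = 0.00655) was higher. These are 4 of 8 members, against 39.3% of all genes, 18.9% higher and 20.4% lower in SH2. Footprints differed for ODC1 (-1.31 ± 0.21, adjusted p = 0.000387), AMD1 (1.25 ± 0.15, adjusted p = 4.22e-05) and SMS (-0.70 ± 0.15, adjusted p = 0.00398), which are 3 of 8 against 23.8% of all genes, 12.1% higher and 11.6% lower. So both shares were near those of all genes. SRM, the member with the largest drop of footprints per RNA, differed by -0.37 in footprints (adjusted p = 0.0914) and by -0.06 in translational efficiency (95% interval -0.51 to 0.39). In translational efficiency no member passed, and 2 of all genes did (0.016%); AMD1 alone had an unadjusted p under 0.05 (0.37 ± 0.16, unadjusted p = 0.035, adjusted p = 0.394), and DESeq2 called none of the members either.

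The values of the 8 genes moved in several patterns over the 18 libraries, after each library kind was centred on its own mean. ODC1 and SMS had the highest correlation between members (Pearson r = 0.875 of log2 CPM), then OAZ2 and SAT1 (0.818) and ODC1 and SRM (0.78). SRM and AZIN1 ran opposite (-0.615), and ODC1 and AMD1 weakly so (-0.361). The libraries share treatments and depth, and no test was made of these values. Among 10327 genes, those most like each member by the same measure were MANF and MSRB3 for ODC1 (0.955 and 0.949), BICC1 and TOMM20 for AMD1 (0.957 and 0.943), LSM4 and MTCH1 for SRM (0.967 and 0.953), and ARHGAP29 and ORC6 for SMS (0.988 and 0.977). For the regulators they were VSIG10 and TALDO1 for OAZ1 (0.955 and 0.939), H2AC13 and H2AC4 for OAZ2 (0.963 and 0.952), IDS and PIAS1 for AZIN1 (0.888 and 0.882), and PARP1 and CENPC for SAT1 (0.93 and 0.928).

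The rest of the pathway was described with a list of 27 other genes, of which 25 were in the table and 23 were tested in RNA. ARG1 and MTAP had no row under these symbols in the deposited table, so they were not analysed here. The list went both ways. In SH2 RNA 9 rose and 10 fell, against 31.1% of all genes that rose and 30.4% that fell, and in SH3 RNA 7 rose and 10 fell, against 27.8% and 25.2%. The list's medians were -0.20 and -0.25. Of 21 tested in footprints, 5 rose and 9 fell in SH2, against 21% and 23.2% of all genes, and 4 rose and 7 fell in SH3, against 16.9% and 19%, with medians of -0.14 and -0.25.

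Among the genes of catabolism and their homologues, SMOX, spermine oxidase, rose in RNA in SH2 (1.23 ± 0.16, adjusted p = 1.89e-05) and SH3 (0.98, adjusted p = 0.000211). SAT2, a homologue of SAT1, rose too (0.95 in SH2 and 1.01 in SH3), the opposite of SAT1 itself. SMOX RNA was 14.9 to 18.6 CPM in SC, 33.4 to 42.7 in SH2 and 24.2 to 39.0 in SH3, with no overlap with SC. SMOX footprints rose in SH2 (0.65, adjusted p = 0.0468), on 16 to 46 counts a library in SC and 35 to 45 in SH2, and SAT2 footprints rose in SH3 (1.196, adjusted p = 0.00775).

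Hypusination uses spermidine to modify the translation factor eIF5A. Of its genes, 4 were tested in RNA and 3 in footprints. EIF5A2, the second eIF5A gene, fell most: RNA by 0.74 in SH2 (adjusted p = 0.000788) and 1.43 in SH3 (adjusted p = 7.63e-06), and footprints by 1.10 in SH2 (adjusted p = 0.000778) and 1.64 in SH3 (adjusted p = 0.000105). EIF5A fell in SH3 RNA (-0.72, adjusted p = 9.89e-05) and in footprints of SH2 (-0.76, adjusted p = 0.00648) and SH3 (-0.93, adjusted p = 0.00233). In SH2 RNA DOHH rose (0.59, adjusted p = 0.00127) and DHPS fell (-0.30, adjusted p = 0.0303). EIF5A2 RNA was 22.9 to 27.2 CPM in SC, 13.4 to 17.7 in SH2 and 7.44 to 11.2 in SH3. The groups did not overlap.

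In ornithine and agmatine supply, AGMAT, an agmatinase family member, fell in SH2 in RNA (-1.22, adjusted p = 4.96e-05) and footprints (-1.50, adjusted p = 0.00176), beside SH3 values of -0.47 (adjusted p = 0.0333) and -0.71 (adjusted p = 0.0971). Footprints of OAT, ornithine aminotransferase, fell in SH3 (-0.95, adjusted p = 0.000185) and SH2 (-0.40, adjusted p = 0.0354). OAT RNA fell too, by 0.64 in SH3 (adjusted p = 4.69e-05) and 0.38 in SH2 (adjusted p = 0.00205). ARG2, the mitochondrial arginase, rose in SH3 in RNA (0.52, adjusted p = 0.0251) and footprints (0.69, adjusted p = 0.029). Its SH2 values were -0.33 (adjusted p = 0.124) and -0.25 (adjusted p = 0.408). Salvage of methylthioadenosine, the by-product of both aminopropyl transfers, has 4 genes that were tested, and RNA of 3 of them fell with each hairpin, against 30.4% of all genes in SH2 and 25.2% in SH3. The fourth, MRI1, rose in SH2 in RNA (0.31, adjusted p = 0.0442) and footprints (0.61, adjusted p = 0.0388). The salvage enzyme ENOPH1 fell most in SH2 (RNA -1.43, adjusted p = 4.02e-07, footprints -1.57, adjusted p = 5.3e-06) and also fell in SH3 (-0.38 and -0.49), and APIP RNA fell by 0.99 in SH2 and by 0.76 in SH3.

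For transport, SLC3A2, the heavy chain of amino acid transporters that has been linked to polyamine export, rose in RNA in SH2 (1.09, adjusted p = 1.76e-06) and SH3 (0.61, adjusted p = 0.000356). ATP13A2, a lysosomal polyamine exporter, rose in SH2 in RNA (0.47, adjusted p = 0.00597) and footprints (0.63, adjusted p = 0.033), though its SH2 and SC footprint libraries overlapped. Its SH3 values were -0.15 (adjusted p = 0.352) and -0.43 (adjusted p = 0.172). SLC18B1, a vesicular polyamine transporter, fell in SH3 in RNA (-1.14, adjusted p = 4.84e-06) and footprints (-1.92, adjusted p = 0.000111) and also in SH2 (-0.57 and -0.66). Of the transcription factors known to act at the E-box of ODC1, MYC rose in RNA in SH2 (0.72, adjusted p = 8.25e-05) and SH3 (0.80, adjusted p = 5.09e-05). MYC footprints rose in SH3 (0.72, adjusted p = 0.0006), with 0.10 in SH2 (adjusted p = 0.563). Footprints of its partner MAX rose in SH2 (0.64, adjusted p = 0.00743) and SH3 (0.69, adjusted p = 0.00719). MAX RNA rose too, by 0.65 in SH2 (adjusted p = 9.52e-05) and 0.40 in SH3 (adjusted p = 0.00498). In translational efficiency MYC was the only listed gene of the 23 tested that passed in SH2, falling (-0.63, adjusted p = 0.039), against 3.9% of all genes. None of 23 passed in SH3, against 0.686% of all genes. In SH3 5 had an unadjusted p under 0.05, for which no share over all genes was computed.

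**Figure D4:**
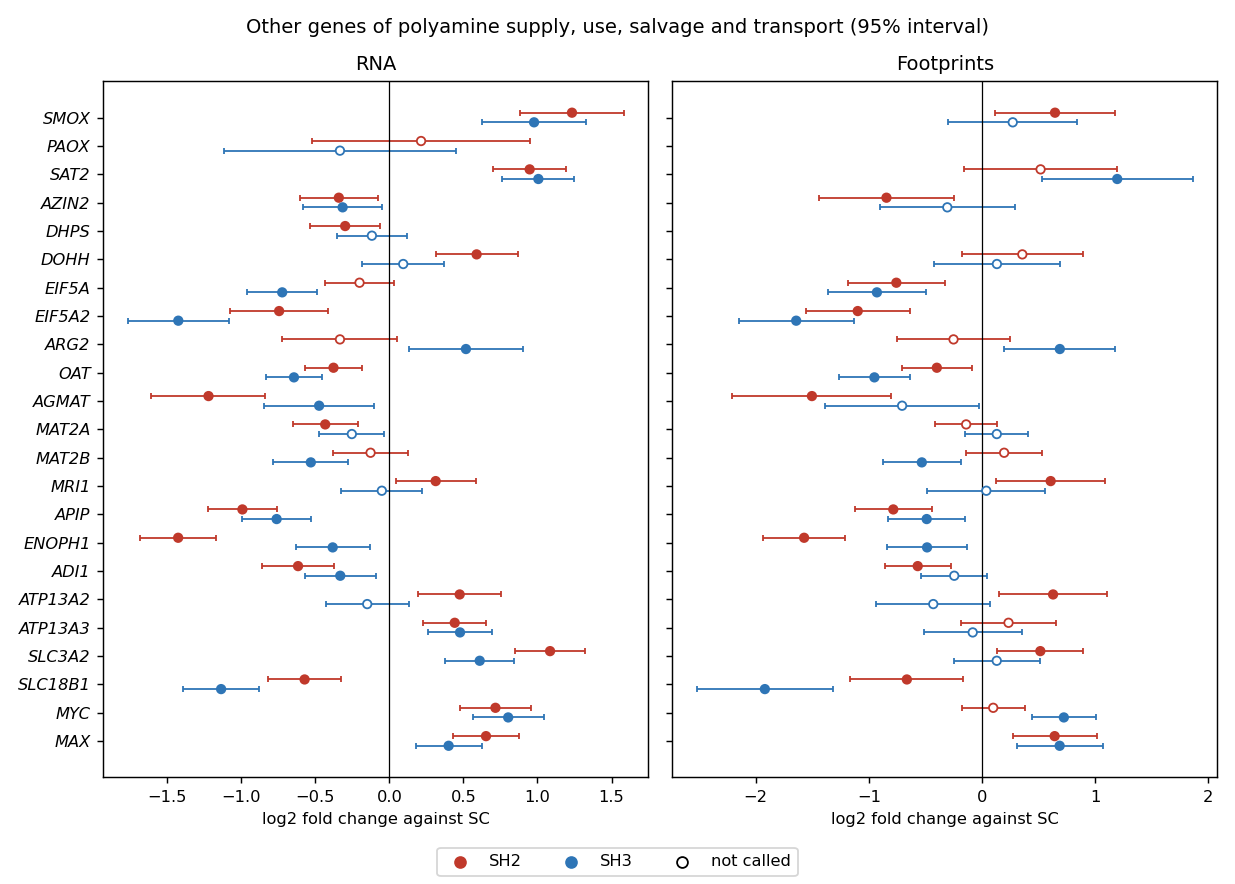
Log2 fold change against SC (points, with 95% intervals) of RNA and footprints of 23 other genes of polyamine catabolism, use, supply, salvage, transport and regulation in SH2 (red) and SH3 (blue); filled points passed an edgeR adjusted p under 0.05, and genes without a point in footprints were not tested there. SMOX, SAT2, SLC3A2, MYC and MAX lie to the right in RNA of both hairpins, and EIF5A2, APIP, ENOPH1 and SLC18B1 lie to the left.

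The authors' deposited table gave the same calls as the edgeR fits in all 32 comparisons of a member's RNA or footprints with SC, with log2 fold changes that differed by at most 0.038. In the authors' deposited table AMD1 footprints had 0.48 in SH2 (adjusted p = 0.0154) and -0.76 in SH3 (adjusted p = 0.000413). Both come from the same counts. Reads of AMD1, SRM, SMS and OAZ1 could be shared with 4, 3, 1 and 1 named pseudogenes, and how the authors counted reads with several matches is not given in the sources used here, so their levels carry that uncertainty.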

How the data were processed

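The deposited table holds, per the file headers, raw counts of 17017 genes in 18 libraries, DESeq2-normalized signal (each count divided by 1 size factor per library), and the authors' log2 fold changes and p-values. Bowtie 1.2.2 and DESeq2 are named in the submitters' processing notes. The counting tool, annotation, build, use of strand, treatment of multiple matches and model formula are not given in the sources used here.

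Deposited counts were tested in edgeR 4.0.16 (R 4.3.3): filterByExpr, TMM scaling, two-sided quasi-likelihood tests, and Benjamini-Hochberg adjustment over all genes tested, with calls at an adjusted p under 0.05. RNA and footprints were each fitted over 9 libraries, and translational efficiency over 18 as an interaction. CPM are TMM-scaled. SEs are the absolute log2 fold change over the square root of F. Log2 CPM in the correlations used a prior count of 3. The design named a ratio per replicate number; the mean ratio is the same without pairing, and its SE is unpaired because IN and RPF numbers 1 and 2 did not match in SC and SH2 (closing section). Alternatives were DESeq2 1.42.0, other scalings, no filter, fewer groups, each replicate left out, a replicate block, and footprint libraries thinned at random to the smallest total.

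Replicates differed by more than counting noise (chi-square per degree of freedom 3.38 to 56.3), so all were kept. Same-numbered SC and SH2 libraries deviated together (r = 0.369 to 0.409 in IN and 0.251 to 0.30 in RPF), so by the data these numbers pair them within a library kind. Those of SH3 were mixed. In IN, r for replicates 1, 2 and 3 was 0.245, -0.158 and 0.358 with SC and 0.495, -0.0132 and 0.292 with SH2. In RPF it was 0.0183, -0.0598 and 0.263 with SC and -0.00816, -0.119 and 0.318 with SH2.

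All members are described. Other pathway genes are named up to 3 in each direction among those called, and the 2 most similar genes are named for each member. MRI1, EIF5A, DOHH and DHPS were added beside others of their groups. Members and lists were chosen with earlier results of these data known. The scripts were tested on simulated data.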

Additional observations from a re-analysis of the deposited data

Results flagged for a closer look

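The direct test of SH2 against SH3 in edgeR found 7 member values at which the hairpins' effects differed, although both are labelled as knockdowns of the same gene and FBL RNA did not differ between them beyond the spread. In RNA these were ODC1 (-0.93), AMD1 (0.85), SMS (-0.67) and OAZ1 (0.43), as log2 of SH2 over SH3. In footprints they were ODC1 (-1.31), AMD1 (1.25) and SMS (-0.70). For AMD1 the footprints of the hairpins lay on opposite sides of SC. Over all genes 39.3% differed between the hairpins in RNA and 23.8% in footprints.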

How the results depend on the processing

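Over 72 member results and their alternatives, 1053 of 1128 values kept direction and side of the threshold, 46 lost the call, 13 gained one and 16 changed sign. Of 39 calls, 26 held in every alternative run. The sign changes were all in differences that had not passed. With 1 replicate left out, RNA differences ran from -0.21 to 0.044 for ODC1 and from -0.17 to 0.043 for SRM in SH3 (SRM 0.063 with plain library totals), and from -0.019 to 0.017 for AZIN1 between the hairpins. Footprints between the hairpins ran from -0.29 to 0.14 for SAT1 and from -0.048 to 0.25 for OAZ1. Translational efficiency ran from -0.22 to 0.11 for OAZ1 in SH2 and from -0.45 to 0.19 for OAZ2 in SH3 (0.061 thinned), and between the hairpins from -0.61 to 0.018 for OAZ2, -0.49 to 0.088 for SAT1, -0.19 to 0.015 for SRM and -0.13 to 0.0059 for SMS. The cause was not tested.

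Leaving out 1 replicate gave 5 to 8 members called in SH2 footprints (5 without SC replicate 3 or SH2 replicate 2) and 3 to 6 in SH3 (3 without SH3 replicate 2). All-gene calls of footprints between the hairpins, 2459 in all, ran from 1541 to 2928. Calls in translational efficiency ran from 110 to 555 in SH2 (489 with all), from 10 to 244 in SH3 (86) with 0 to 2 members, and from 0 to 51 between the hairpins (2). In SH2 they were 140 without SC replicate 3, 195 without SH2 replicate 1, 110 without SH2 replicate 3 and 310 without SH3 replicate 3, and in SH3 244 without SC replicate 1, 10 without SC replicate 3, and 18, 11 and 31 without SH3 replicates 1, 2 and 3. Thinning footprint libraries to 1 depth gave 5 members in SH2 footprints, 2464 genes in SH3 footprints against 3719, 1503 between the hairpins, and 255 and 0 for translational efficiency in SH2 and between the hairpins. DESeq2 called 828, 289 (3 members) and 160 genes in translational efficiency in SH2, SH3 and between them, and fitting only the groups compared gave 184, 46 and 36. Without a filter 35 were called between the hairpins. Plain library totals moved the all-gene RNA median to 0.105 in SH2 and 0.121 in SH3, and the share of higher calls in SH2 translational efficiency from 37% to 21.3%.

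With the replicate block, calls in translational efficiency were 191, 23 and 0, and of the members' calls AZIN1 in SH2 was lost while RNA of SRM between the hairpins passed (adjusted p = 0.0357); no other member call changed. The median SC ratio of the members was -1.40 and became -1.13 on the deposited normalized signal, which has its own scale between library kinds.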

Other observations

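Replicate numbers 1 and 2 of SC and SH2 did not match between library kinds. Deviations from the group mean over genes of IN replicate 1 correlated with those of RPF replicate 2 (r = 0.584 in SC and 0.57 in SH2) and IN replicate 2 with RPF replicate 1 (0.466 and 0.503), whereas the same-numbered libraries of these replicates ran opposite (-0.497 and -0.469 in SC, -0.309 and -0.311 in SH2). The libraries numbered 3 went together (0.267 in SC and 0.509 in SH2). In SH3 the same numbers went together (0.43, 0.298 and 0.209). These correlations are across genes, which are not independent replicates. The fit of translational efficiency used for the results does not use the numbers.

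The authors' deposited table has columns of a further measure, RD, for SH2 and for SH3. They were the same for both hairpins in all 17017 genes, with 0 that differed. Over 12531 genes they differed from the SH3 change in translational efficiency by a median of 0.00474 in log2 (r = 0.858 across genes) and from the SH2 change by 0.261 (r = 0.465). For AMD1 both columns held 0.57, beside 0.94 in SH2 and 0.57 in SH3 here. RD was therefore not used for SH2.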
